A study of Caenorhabditis elegans with 4 samples.

Results

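A set of 479 places in the genome of Caenorhabditis elegans embryos was called in both ChIP samples of the tagged transcription factor F23F12.9 at nearly the same position, yet lay outside the combined list that the authors deposited. These places, called outside sites below, were chosen by peak number, midpoint and overlap, in 3 steps. A nuclear peak of ChIP replicate 1 had to be among the first 50% of its list by peak number. Its midpoint had to lie within 100 bp of the midpoint of a replicate 2 peak among the first 50% of that list (number 6900 or lower). It could overlap no combined peak. Of the 20879 nuclear peaks of replicate 1, 10428 met the first condition, 2104 of those met the second, and 479 met all 3. Peak numbers, midpoints and the combined list chose the sites, so those values are given as description and carry no test.

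The tagged gene, F23F12.9, has the symbol zip-8 and codes for a bZIP (basic leucine zipper) protein. Such proteins grip DNA through a basic region and pair with a partner through a zipper of leucine repeats, so they bind as dimers. In a ChIP experiment, DNA fragments crosslinked to the protein are collected with an antibody and sequenced, and a peak caller marks the places where they pile up. Such calls grade from strong peaks down to places that rise little above background.

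The ChIP group held 2 samples and the input group 2 samples, numbered as replicates 1 and 2 in each. All came from embryos of strain OP327, grown at 20 °C as a mixed population of males and hermaphrodites and fixed with 2% formaldehyde. The strain carries the transgene wgIs102, a copy of F23F12.9 with TY1, EGFP and FLAG tags introduced by bombardment, was not outcrossed, and bears the allele ed3, which the labels assign to unc327 in the genotype and to unc-119 in the strain description. Chromatin was precipitated by antibodies against GFP, and input DNA came from the same extracts before precipitation. The inputs had no peak lists here, so no value below has a background measured in them. The labels do not say whether the replicates came from separate cultures, and each list is 1 sample.

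The 3 lists held 20902 peaks for replicate 1, 13801 for replicate 2 and 2237 for the combined list. They hold positions, a score and a peak number, with no read counts, so depth is unknown. The number orders each replicate list, and the lowest numbers carry the highest score. Its unit is not given, and scores were not compared between lists. Highest scores were shared by many peaks, the first 4605 of replicate 1 and the first 2598 of replicate 2. All coordinates are on WormBase build WS220, counted from 1. Which gene lies at a site is not given, since no WS220 annotation was used here.

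Pairs between the lists were common inside the combined list and rare outside it. The authors applied IDR, which ranks peaks by replicate agreement, and how they made the combined list is not given. All 985 nuclear replicate 1 peaks numbered up to 1000 also lay inside it. The contrast below is therefore a description and no test. Among the 8076 peaks among the first 50% of replicate 1 that overlapped no combined peak, 479 had a replicate 2 partner, or 5.93%. Among the 2352 that did overlap a combined peak, 1625 had one, or 69.1%. Over all 10428 peaks of that part of the list the share was 20.2%. Of the 2104 shared peaks, 22.8% were therefore outside sites. The 1625 shared peaks that overlapped the combined list are called inside sites below, and the 7597 peaks with neither a partner nor a combined overlap are called lone peaks.

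Some pairs can arise by placement alone. To gauge how many, the replicate 2 peaks were moved along each chromosome by a random amount, wrapping at its end, and the pairs were counted anew. The 479 observed sites stood against a mean of 113 over 1000 such shifts, whose lowest count was 81 and highest 156. The observed number was 4.25 times the mean of the shifts, and 366 sites above it. These counts weigh places along the genome in 1 pair of lists and not a spread between replicates. Because the lists do not say which pairs are which, no single outside site can be assigned to the excess.

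Outside sites began where the combined list thinned out. Among the 985 nuclear peaks numbered up to 1000 in replicate 1, all 985 overlapped a combined peak, so no outside site was possible there. The first peak outside the combined list had number 1091, and the first outside site had number 1528, after 11 lone peaks. Between numbers 1001 and 2000 there were 4 outside sites, between 2001 and 3000 there were 71, and between 3001 and 4000 there were 125, the most of any bin of 1000. The combined list held 288 of the 998 peaks from 2001 to 3000 and 79 of the 999 from 3001 to 4000. Beyond that the number of outside sites was 85 from 4001 to 5000, 51 from 5001 to 6000 and 53 from 6001 to 7000.

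The share of available peaks that were outside sites had the same shape. It was 10% of 710 peaks from 2001 to 3000 (exact 95% binomial interval 7.89 to 12.4%), 13.6% of 920 from 3001 to 4000 (11.4 to 16%) and 8.8% of 966 from 4001 to 5000 (7.09 to 10.8%). From 8001 to 9000 it was 2.42% of 990 (1.56 to 3.59%). Intervals throughout cover counting error only. Where 2 intervals overlap, the difference was not tested, and the values need not be alike. The ratio to shifted lists was 7.24 from 2001 to 3000 and 9.67 from 3001 to 4000. It was 3.76 from 5001 to 6000, 1.73 from 8001 to 9000 and 1.91 from 9001 to the end of the first 50%. In the last of these bins 38 sites were observed and shifts reached 39, a level that some shifts also gave. From 8001 to 9000, 24 sites were observed and shifts reached 26, and from 7001 to 8000 the values were 28 and 27. The earliest bin with outside sites, from 1001 to 2000, was within the shifted range too. Its 4 sites were 3.25% of 123 available peaks (0.893 to 8.12%) and 2.33 times the shifted mean, and shifts reached 6.

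**Figure D1:**
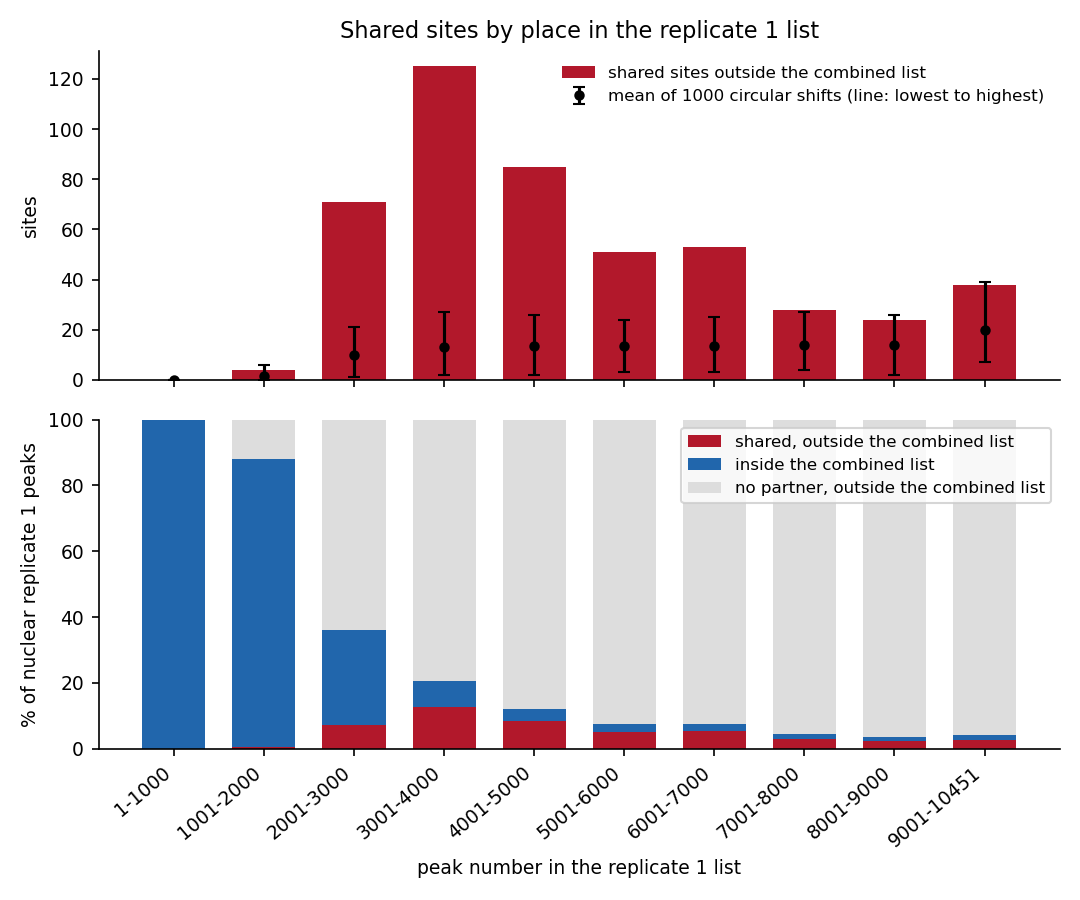
Outside sites by peak number in the replicate 1 list, in bins of 1000, the last one longer. The upper panel gives the count of outside sites as bars and the mean of 1000 circular shifts as points with lines from the lowest to the highest shift; the bars peak at 125 sites from 3001 to 4000, 9.67 times the shift mean. The lower panel splits the nuclear peaks of each bin, in percent, into outside sites, peaks inside the combined list and lone peaks.

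The choice of sites limited their places in both lists, so these are described only. Sites came from the first 50% of each list, and the combined list held all 985 nuclear replicate 1 peaks up to number 1000. The numbers of outside sites in replicate 1 ran from 1528 to 10265, with a median of 4382 and quartiles of 3315 and 6374. In replicate 2 they ran from 191 to 6882, with a median of 3042 and quartiles of 1886 and 4650. These medians lie 21% of the way down the replicate 1 list and 22% down that of replicate 2. As a share of list length, 233 sites stood earlier in replicate 1 and 246 earlier in replicate 2. Inside sites had medians of 1054 in replicate 1 and 999 in replicate 2. Lone peaks had a median of 6484 in replicate 1.

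Scores add no separate evidence on this order, because the lowest peak numbers carry the highest score. The highest score belongs to the first 4605 peaks of replicate 1 and the first 2598 of replicate 2. The shares below are therefore peak numbers told in another form. At the highest replicate 1 score stood 262 of 479 outside sites (54.7%; interval 50.1 to 59.2%) and 1588 of 1625 inside sites (97.7%; 96.9 to 98.4%). At the highest replicate 2 score stood 206 outside sites (43%; 38.5 to 47.6%) and 1317 inside sites (81%; 79.1 to 82.9%). Both scores were at their maximum in 108 outside sites, or 22.5%, and in 1290 inside sites, or 79.4%. These 108 were 8.81 times the shifted mean of 12.3 sites. Neither score was at its maximum in 119 outside sites, which was 2.4 times the shifted mean of 49.7.

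Few outside sites stood high in both lists at once, which their choice largely set. The combined list held all 985 nuclear replicate 1 peaks up to number 1000 and 873 of 996 from 1001 to 2000. It is 2237 entries long. Numbers of 2237 or lower in both replicates were held by 2 of 479 outside sites (0.418%) and 1062 of 1625 inside sites (65.4%). By the replicate 2 number, whatever the other, 164 outside sites (34.2%; interval 30 to 38.7%) were within that length. By the replicate 1 number 7 were (1.46%; 0.59 to 2.99%). The lists differ in length, and all peaks up to number 1000 of replicate 1 overlapped the combined list, so these 2 shares cannot be compared with each other. For the 23 outside sites with a replicate 2 number up to 1000, the median replicate 1 number was 5265, against 732 for inside sites in the same band. They made up 2.75% of the 837 shared peaks there (interval 1.75 to 4.09%). That share was 22.2% from 1001 to 2000 and 66.7% of 81 from 6001 to 6900 (interval 55.3 to 76.8%).

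At the same place in replicate 1, outside sites had later partners. From 2001 to 3000 the median replicate 2 number was 3516 for 71 outside sites and 1440 for 212 inside sites. From 3001 to 4000 it was 2788 for 125 outside sites and 1141 for 60 inside sites. Every later bin had a higher median for outside than for inside sites, though inside sites were then 17 or fewer per bin. The order was not a clean division by both numbers. Of the outside sites, 417 had both numbers lower than those of at least 1 inside site. That count fell to 283 when only the 1603 inside sites with a midpoint within 100 bp of a combined midpoint were used. A single late inside site can count for many outside sites. Of the 1625 inside sites, 259 had both numbers higher than those of at least 1 outside site. Only 10 had both numbers above the medians of outside sites. Across the 479 outside sites the Spearman rho between the numbers was −0.06, and across the 1625 inside sites it was 0.35. Both sets were limited in their numbers by the way they were chosen, and peaks are not independent replicates, so these are descriptions.

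**Figure D2:**
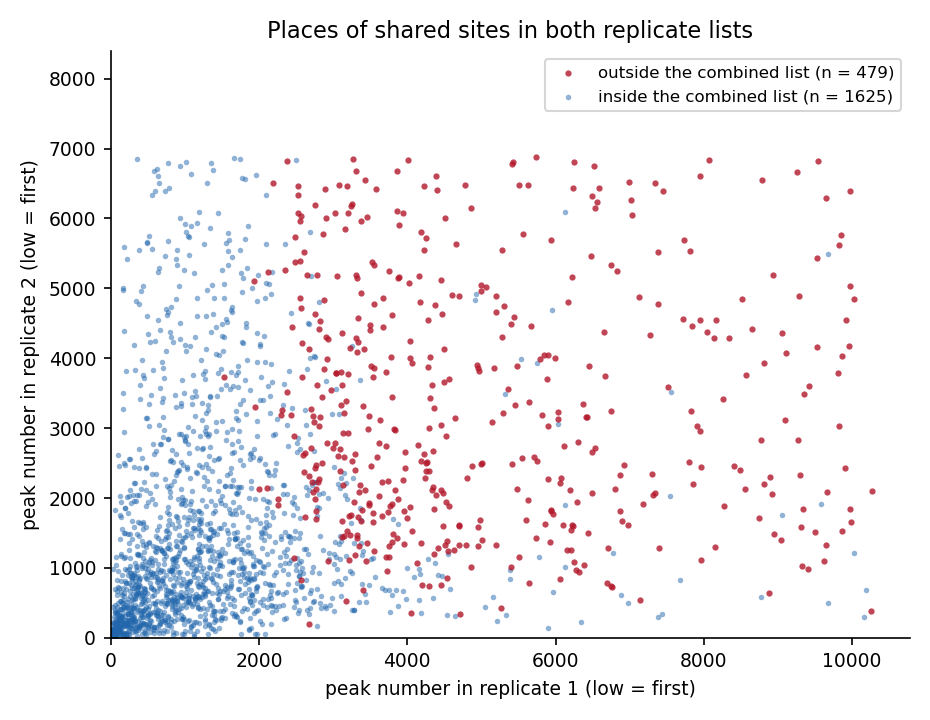
Peak numbers of the 479 outside sites and the 1625 inside sites, with the replicate 1 number on the horizontal axis and the replicate 2 number on the vertical axis (low numbers come first in each list). Inside sites crowd the lower left, with medians of 1054 and 999, while outside sites begin at replicate 1 number 1528 and spread over replicate 2 numbers, with medians of 4382 and 3042.

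The choice of sites fixed the distance between partner midpoints at 100 bp or less, so its values describe the sites and support nothing. The distance between midpoints was 0 to 20 bp in 150 outside sites, 6.59 times the shifted mean of 22.8. It was over 20 to 40 bp in 99, over 40 to 60 bp in 100, over 60 to 80 bp in 72 and over 80 to 100 bp in 58 sites. Shifted lists gave 22.4 to 22.8 sites in each of these bins, so the ratio fell to 2.58 in the widest. The median distance was 39 bp for outside sites and 23 bp for inside sites. The replicate 2 midpoint lay to the right in 247 outside sites, to the left in 229 and at the same base in 3, a near-even split.

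**Figure D3:**
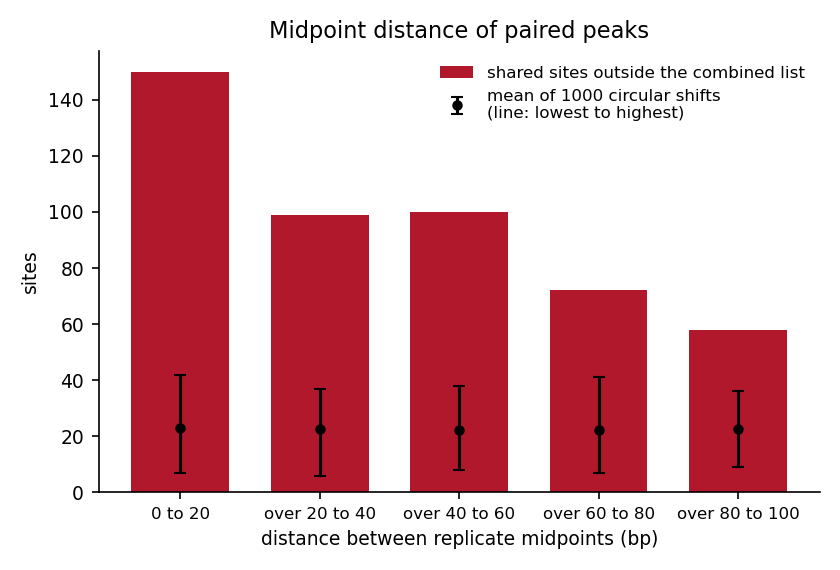
Distance between the replicate midpoints of the 479 outside sites, in bins of 20 bp. Bars are observed sites and points are means of 1000 circular shifts with lines from the lowest to the highest shift; the bars decline from 150 to 58 sites while the points stay between 22.4 and 22.8.

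All 479 outside sites were 384 bp wide in replicate 1, and all 479 partners were 600 bp wide in replicate 2, the most common width of each list. This is no trait of the outside sites, since the 7597 lone peaks were all 384 bp wide too. Among inside sites, 1295 of 1625 (79.7%) had the common width in replicate 1. Each outside site had a partner of its own, and no outside site overlapped another, so the 479 peaks are 479 distinct places. Another replicate 1 peak of any number overlapped 57 outside sites (11.9%; interval 9.14 to 15.1%) and 170 inside sites (10.5%; 9.02 to 12.1%).

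The leading sites described next are those outside chromosome I. Ranked by the worse of its 2 numbers, the first outside site lay at chrII:9102987-9103370. It was number 1997 in replicate 1 and 2129 in replicate 2, with midpoints 82 bp apart. A combined peak, number 1603, began 145 bp to its right, so this site borders a place that the authors kept. The next lay at chrV:13241547-13241930, with number 2108 in replicate 1, number 2140 in replicate 2 and midpoints 26 bp apart. No combined peak lay within 18.8 kb of it. These were the only outside sites with both numbers within the length of the combined list.

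On chromosome III the first outside site lay at chrIII:2172051-2172434, with number 2258 in replicate 1 and 1894 in replicate 2. The nearest combined peak was 12.5 kb away and was among the leading ones, combined number 115. A second site of this chromosome, at chrIII:13708054-13708437, had number 2589 in replicate 1 and 2611 in replicate 2. Its midpoints were 8 bp apart, and it stood 17.9 kb from the combined list. On chromosome IV the leading site was at chrIV:11593507-11593890, with number 2471 in replicate 1 and number 1146 in replicate 2. It stood 70.6 kb from any combined peak. A second, at chrIV:8333993-8334376, had number 2608 in replicate 1 and 2377 in replicate 2, with midpoints 11 bp apart and the nearest combined peak 29.6 kb away.

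The other leading sites included an isolated one on chromosome V, at chrV:18799530-18799913. It was number 829 in replicate 2 and 2569 in replicate 1, and lay 79.6 kb from the combined list. At chrV:2697040-2697423 the numbers were 2625 in replicate 1 and 2651 in replicate 2, and a combined peak lay 3.44 kb away. At chrII:6113816-6114199 the midpoints were only 2 bp apart, with numbers 2617 in replicate 1 and 1722 in replicate 2. A combined peak, number 214, lay 3.53 kb from it. The first site of the X chromosome was at chrX:1016383-1016766, with number 2669 in replicate 1 and 2312 in replicate 2. Leading outside sites therefore ranged from close neighbours of combined peaks to places far from any.

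Outside chromosome I, the lowest replicate 2 number of an outside site was 344, at chrIII:5715539-5715922, where the replicate 1 number was 4707. The lowest replicate 1 number was 1931, at chrX:12548878-12549261, where the replicate 2 number was 5106. Each was thus early in one list and much later in the other.

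Sites close to the limits of the choice, again outside chromosome I, were as follows. The last by replicate 1 number was at chrIII:7725356-7725739, number 10250, whose partner was number 381 of replicate 2. The first beyond that limit was number 10457, at chrV:5581531-5581914. The last by replicate 2 number was 6847, at chrX:10550256-10550639, and the first beyond was 6942, at chrV:13888894-13889277, where the midpoints were 3 bp apart. The widest midpoint distance inside the limit was 100 bp, held by 3 sites, among them the one at chrII:10436815-10437198, and the first beyond it was 101 bp, at chrX:4269239-4269622. In all, 25 outside sites had midpoints 90 bp or more apart, and 33 peaks outside the combined list missed the limit by up to 10 bp. The outside site nearest to a combined peak, at chrIV:9773587-9773970, was 2 bp from combined peak number 1709. The smallest overlap that kept a shared peak inside was 83 bp, at chrIII:910759-911142. Edge cases at the overlap limit were few, since only 2 of the 479 outside sites had a replicate 2 partner that overlapped a combined peak.

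Outside sites were found on every nuclear chromosome. Chromosome V held 94 of them (19.6%; interval 16.2 to 23.5%), X held 91 (19%; 15.6 to 22.8%), III held 83 (17.3%; 14 to 21%), I held 79 (16.5%; 13.3 to 20.1%), IV held 77 (16.1%) and II held 55 (11.5%; 8.77 to 14.7%). On chromosome II the interval lay below that chromosome's 15.2% of the nuclear span, and on III it lay above 13.7% of the span. The other sets shared the departure on III, with 17.2% of inside sites (15.4 to 19.2%), 15% of lone peaks (14.2 to 15.8%) and 16.5% of combined peaks (15 to 18.1%). On II they also lay under the share of the span, though their intervals included it. The shares there were 13.7% of inside sites (12 to 15.4%), 14.7% of lone peaks (13.9 to 15.5%) and 13.9% of combined peaks (12.5 to 15.4%). On the other 4 chromosomes the interval of outside sites included the share of the span. Neighbouring peaks are not independent, so these intervals are narrower than the true uncertainty.

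Set beside the combined list, the widest gap was on X. That chromosome held 19% of outside sites and 15% of combined peaks (interval 13.6 to 16.6%), against 17.9% of lone peaks (17 to 18.8%). The intervals of outside sites and combined peaks overlapped on X and on each other chromosome, which does not show that the shares are alike. On chromosome I the shares were 16.5% of outside sites and 19.6% of combined peaks (18 to 21.3%). Of the 343 shared peaks on X, 26.5% were outside sites (21.9 to 31.5%), the highest share, and of the 404 on chromosome I, 19.6% were (15.8 to 23.8%), the lowest. These intervals overlapped too. The background over all shared peaks was 22.8%.

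The ratio to shifted lists stayed above 1 on every chromosome. It was 5.13 on V, 4.65 on X, 4.46 on IV, 4.14 on III, 3.68 on II and 3.52 on I. On V 94 sites were observed and the highest of 1000 shifts gave 33, and on chromosome I 79 were observed and the highest shift gave 42. As a share of the available peaks outside the combined list, outside sites made up 6.79% on III (5.44 to 8.34%) and 4.7% on II (3.56 to 6.07%), the highest and the lowest values, against 5.93% over all chromosomes.

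**Figure D4:**
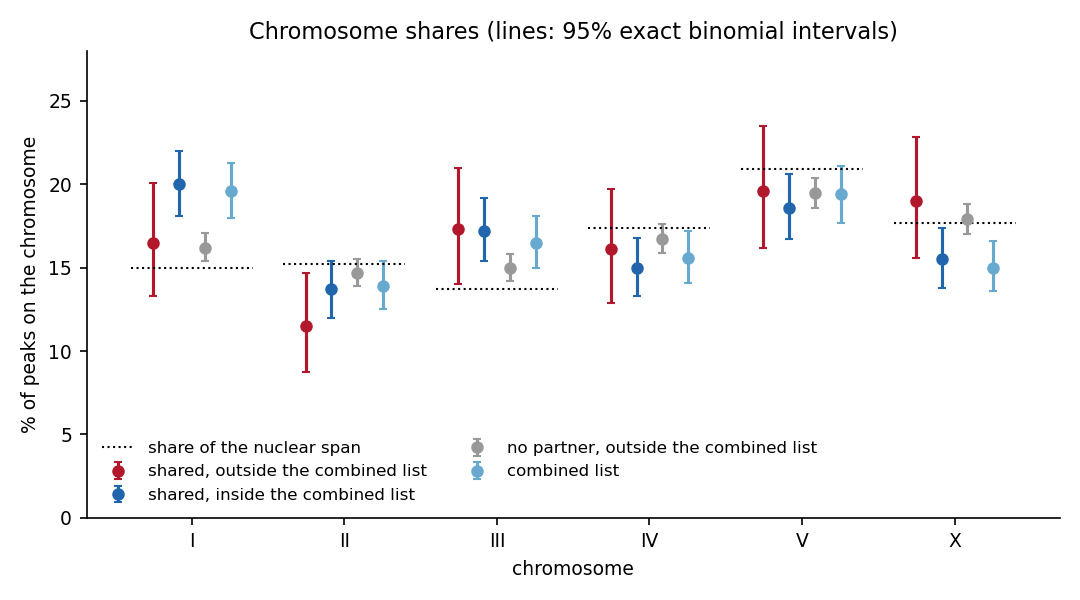
Share of peaks on each of the 6 nuclear chromosomes, in percent, for the 479 outside sites, the 1625 inside sites, the 7597 lone peaks and the 2237 combined peaks. Points are shares with exact 95% binomial intervals, and dotted lines mark each chromosome's share of the nuclear span. Outside sites lie under the dotted line on chromosome II (11.5% against 15.2%) and over it on III (17.3% against 13.7%). The points of the other sets also lie under it on II and over it on III.

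The centres of the chromosomes held about the same share of outside sites as of the other peaks. Worm autosomes have gene-dense centres that recombine little and arms that recombine more. Here the middle 33.3% of each span, that of X included, stood for the centre. It held 153 of 479 outside sites (31.9%; interval 27.8 to 36.3%), beside 30.8% of inside sites (28.6 to 33.1%), 30.5% of lone peaks (29.5 to 31.6%) and 30.6% of combined peaks (28.7 to 32.6%). The interval of outside sites included each of these values and the 33.3% of an even spread. In the centres, outside sites were 6.19% of the 2471 available peaks (5.27 to 7.22%), and in the arms 5.82% of 5605 (5.22 to 6.46%). The ratio to shifted lists was 4.45 in the centres and 4.25 over all outside sites, and no value was computed for the arms.

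By chromosome the centre shares ranged more widely. They were highest on IV, with 29 of 77 outside sites (37.7%; 26.9 to 49.4%), beside 24.4% of combined peaks there (19.9 to 29.2%). They were lowest on II, with 13 of 55 (23.6%; 13.2 to 37%), beside 31.2% of combined peaks (26.1 to 36.7%). On V they were 24.5% of 94 (16.2 to 34.4%), beside 33.5% of combined peaks (29.1 to 38.1%). All of these intervals overlapped with those of the combined list, as did those on I, III and X. Such overlap does not show that the shares are alike, and the differences were not tested.

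Over all chromosomes together, outside sites lay about as far from the combined list as lone peaks did, and neither set could overlap it. For outside sites the median distance to the nearest combined peak, from edge to edge, was 14287 bp (95% interval of the median 12451 to 16139 bp). The quartiles were 4338 and 29568 bp. For lone peaks the median was 14991 bp (14363 to 15558 bp), with quartiles of 5654 and 32152 bp, so the intervals of the medians overlapped. Within 500 bp of a combined peak lay 12 outside sites (2.51%; 1.3 to 4.34%) and 2.83% of lone peaks (2.47 to 3.23%). Within 1 kb the shares were 6.89% of outside sites (4.79 to 9.54%) and 5.57% of lone peaks (5.06 to 6.11%). Within 5 kb they were 27.1% of outside sites (23.2 to 31.4%) and 22.7% of lone peaks (21.8 to 23.7%), again with overlapping intervals.

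Within 10 kb lay 40.3% of outside sites and 38.3% of lone peaks, and within 50 kb 90% of outside sites and 87.9% of lone peaks. How many outside sites were flanks of combined peaks depends on the distance allowed, and was not tested. The farthest outside site, at chrIV:1013795-1014178, stood 221 kb from the nearest combined peak, with number 2572 in replicate 1 and 4718 in replicate 2. By chromosome the median of outside sites ran from 11655 bp on II (5564 to 18666 bp) to 17938 bp on X (11604 to 20987 bp), and these intervals overlapped. On II the median of lone peaks was larger, at 16420 bp (14843 to 18037 bp). On I it was smaller, at 10613 bp (9518 to 11517 bp) against 14818 bp for outside sites (10354 to 18311 bp). Lone peaks also had the larger median on III, IV and V and the smaller on X. The intervals of the 2 sets overlapped on every chromosome.

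**Figure D5:**
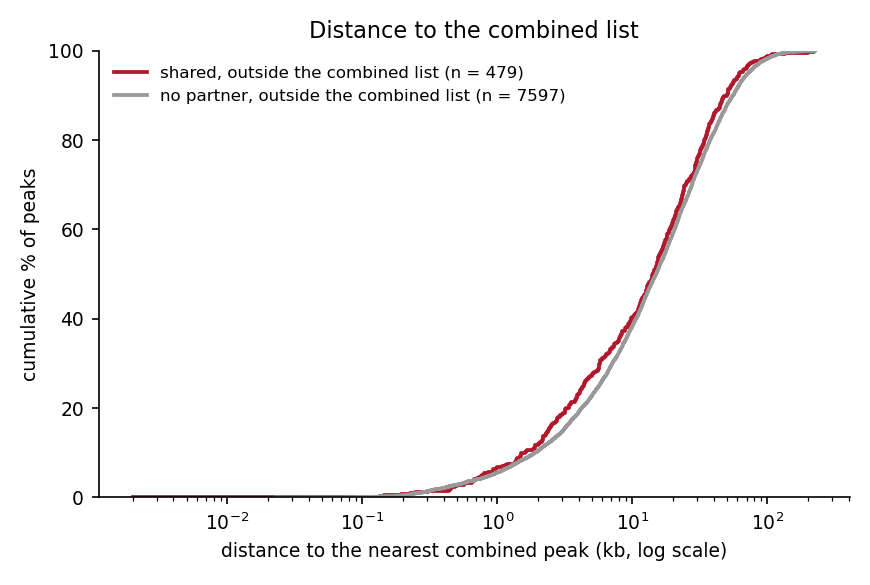
Cumulative share of peaks, in percent, by distance to the nearest combined peak in kb on a log scale, for the 479 outside sites and the 7597 lone peaks. The curves run close together, with 27.1% of outside sites and 22.7% of lone peaks within 5 kb.

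Most outside sites had no other outside site within 10 kb. Spacing was computed for outside sites only, with no shifted value, so it does not say whether they were clustered or evenly spread. The median distance to the next outside site was 60940 bp, and the closest pair was 348 bp apart. Another outside site lay within 1 kb of 12 sites, within 5 kb of 39 and within 10 kb of 58. Joined at 5 kb, they formed 440 single sites, 18 pairs and 1 group of 3. That group spanned 7202 bp on chromosome V. Its first site, at chrV:19779425-19779808, had number 3295 in replicate 1 and 2405 in replicate 2. The second, at chrV:19783648-19784031, had numbers 2729 and 2089, in the same order. The third, at chrV:19786243-19786626, had numbers 3626 and 2027. Combined peaks lay 1861, 1498 and 4093 bp from the 3 sites, so the group is also a stretch near combined peaks. It was named after its values were seen.

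Counted in 103 bins of 1 Mb, 5 bins held no outside site and the median was 4. The fullest bins held 11, and outside chromosome I these were chrIII:2000001-3000000 and chrIII:11000001-12000000. The variance of these counts was 1.39 times their mean.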

How the data were processed

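The data were 3 peak lists: 1 for each of 2 ChIP samples and 1 combined list. SPP called the peaks, and IDR, which ranks peaks by replicate agreement, was then applied, per the file headers and source columns; coordinates are on WormBase WS220, per the file headers. The authors deposited 1 score per peak, with no unit stated. Thresholds, versions, read depth and the use of the inputs were not given in the sources used here, nor was the way the combined list was made. Samples were grouped by title. Mitochondrial peaks (23 and 25) were kept out of every comparison. A RefSeq gene table of another build gave only the symbol zip-8.

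Outside sites, the 1000 circular shifts per chromosome, exact (Clopper-Pearson) 95% intervals and order-statistic intervals of medians were computed with scipy 1.17.1, pandas 2.3.3 and numpy 2.4.6 under Python 3.11.15. A partner was the replicate 2 peak with the nearest midpoint. Spans run to the last peak of any list. No p-value was computed, since peaks of 1 list are not replicates. The pairing was tested on simulated lists of randomly placed peaks with planted pairs. Those lists had neither the spacing of the real peaks nor a combined list to exclude, so the test does not cover these. Alternatives covered the pairing rule, list length, combined overlap, kind of shift and each replicate alone. The sites and the rules for naming them (outside chromosome I, the 10 lowest by worse number, the first per chromosome, those next to each limit) were chosen with earlier results of these data known. Positions on chromosome I are not reported here.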

Additional observations from a re-analysis of the deposited data

Results flagged for a closer look

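The peaks on mitochondrial DNA were used in no comparison above. Of the 23 replicate 1 peaks there, all within the first 50% of the list, 12 met the same number and midpoint limits (52.2%; exact 95% binomial interval 30.6 to 73.2%), and the combined list has no peak on this molecule. The count was noted as data left out above, since it passed a floor of 3 counts, which is no reference level for pairing. Peaks are dense on this short molecule, and no shifted value was computed for it.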

How the results depend on the processing

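With midpoints within 50 bp there were 312 outside sites, 5.53 times the shifted mean, and with 200 bp there were 696, 3.22 times it. Overlap of at least 1 bp gave 1078 sites and a ratio of 2.15, and a reciprocal overlap of 50% gave 683 and 3.33. Whole replicate lists gave 1218 sites and 2.37, and the first 25% of each list gave 168 and 8.16. Wider rules and longer lists also raise the shifted count. Shifting only replicate 2 peaks outside the combined list gave a ratio of 5.98, because the shifted mean fell to 80.1. Local shifts of 5 to 50 kb gave 4.12, counting replicate 2 peaks gave 477 sites and 4.61, and asking for no combined peak within 500 bp gave 467 sites and 4.27. With the middle 50% of each span as the centre, 46.8% of outside sites lay there, beside 46.5% of lone peaks and 46.9% of combined peaks. The alternatives on chromosome shares, the middle 33.3% and the median distance otherwise stayed within the intervals of the reported values. With each replicate alone and no partner asked for, the share was 16.2 to 17.6% on chromosome I, 14.2 to 14.5% on II, 15.1 to 16.4% on III, 16.6 to 16.7% on IV, 17.1 to 19.5% on V and 18 to 18.2% on X, with 30.6 to 32.1% in the centres and a median distance of 13866 to 14934 bp. The number of sites has no such value, since it needs both replicates. No paired analysis was possible because the inputs had no lists and the result comes from no test, so no replicate block could be fitted. Read depth is unknown, so what it limits cannot be stated.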
